A study of Mus musculus with 11 samples.

Results

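The genes described here are 10 transcripts of the mouse liver that are classed as oncofetal or tumour-associated: Afp, H19, Igf2, Gpc3, Dlk1, Cd24a, Bex1, Akr1b7, Spp1 and Tspan8. They were taken by gene name from a count table of 43346 genes, and all 10 were found there with 1 row each. The libraries came from liver of FVB/NJ mice with hepatocellular carcinoma that was started by expressing MET, a receptor tyrosine kinase, together with β-catenin, the transcriptional arm of Wnt signalling. Of the 11 libraries, 6 carry the label responder and 4 the label non-responder to anti-PD-1, an antibody that blocks an inhibitory receptor of T cells, and 1 is labelled as not treated. All groups share the strain and the tumour model. The treatment field of the untreated library also names anti-PD-1, so its grouping rests on its response label. The sources used here do not give age, sex, how response was scored, how the transgenes were delivered, or whether tumour nodules or whole lobes were sampled. Nothing in the labels says that each library is a separate mouse, so a p-value refers to the spread among these libraries, which may be technical.

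Oncofetal genes are active in the fetal liver, are shut down after birth and are switched on again in many liver tumours. Afp encodes alpha-fetoprotein, the main serum protein of the fetus and a serum marker of hepatocellular carcinoma. H19, a non-coding RNA, and Igf2, a fetal growth factor, are neighbouring imprinted genes expressed from opposite parental alleles, and Dlk1, a Notch-like surface protein of hepatoblasts, belongs to another imprinted cluster. Gpc3 is a cell-surface heparan sulphate proteoglycan that is used as a tissue marker of liver cancer, and Cd24a and Spp1 (osteopontin) are best known in liver from progenitor and biliary cells.

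The transcripts that carry the results are placed on mm10 as the count table gives them. H19 (chr7:142575529-142578143) hosts miR-675, whose mature strands lie at chr7:142577112-142577133 and chr7:142577078-142577099, both on the minus strand. They are shown because the exon that holds their hairpin carried the H19 counts described further on. The sequences are those of RefSeq (GRCm38.p6), and capitals mark the seed, bases 2 to 8.
mmu-miR-675-5p: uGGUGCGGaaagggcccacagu
mmu-miR-675-3p: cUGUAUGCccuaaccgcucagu
The seeds of the strands differ, so they fall into no common seed group.

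Promoter windows of 200 bases before the RefSeq start were found for 8 of the 10 genes, with 12 windows in all. H19 and Cd24a were not among them. Windows are printed for Afp (chr5:90490514-90490713, plus strand), Gpc3 (chrX:52613975-52614174, minus strand) and an Igf2 start beside a counted first exon given below (chr7:142657497-142657696, minus strand). These genes were taken because Afp and Gpc3 followed each other across the libraries and Igf2 did not follow them as closely. Capitals mark every match to the motifs searched on both strands.
Afp promoter: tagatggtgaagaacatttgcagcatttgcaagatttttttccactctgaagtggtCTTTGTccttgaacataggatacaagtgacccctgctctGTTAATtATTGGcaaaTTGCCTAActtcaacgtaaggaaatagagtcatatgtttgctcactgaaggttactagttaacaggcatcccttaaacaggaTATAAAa
Gpc3 promoter: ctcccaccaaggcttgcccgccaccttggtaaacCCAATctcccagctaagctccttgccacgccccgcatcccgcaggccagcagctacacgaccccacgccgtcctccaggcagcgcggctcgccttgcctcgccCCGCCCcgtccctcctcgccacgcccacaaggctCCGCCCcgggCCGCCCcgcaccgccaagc
Igf2 promoter: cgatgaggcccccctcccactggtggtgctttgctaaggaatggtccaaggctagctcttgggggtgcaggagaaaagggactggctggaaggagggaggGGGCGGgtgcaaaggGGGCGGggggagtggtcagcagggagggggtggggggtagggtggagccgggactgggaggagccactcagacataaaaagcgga
In Afp the matches were CTTTGT (a TCF/LEF-type motif), GTTAAT (HNF1, a hepatocyte factor), CCAAT on the opposite strand, TTGCNNAA (C/EBP) and TATAAA, the last 7 bases before the RefSeq start and 30 bases before the start in GENCODE M21. In Gpc3 they were 1 CCAAT and 3 GGGCGG (GC box) on the opposite strand, and in Igf2 2 GGGCGG, and no match overlapped another. GTTAAT stood in 5.06% of all 32851 windows of this length, CTTTGT in 13.33%, TTGCNNAA in 7.47%, TATAAA in 9.96%, CCAAT in 29.35% and GGGCGG in 31.05%. CTTTGA, another TCF/LEF-type motif, and TGANTCA (AP-1) were found in 10.9% and 5.48% of all windows and in none of the 12. The windows also differ in composition, with 37.5% G and C in Afp, 73.0% in Gpc3 and 65.0% in Igf2, against a median of 53.0% over all windows. A match is a description of letters and not a bound site.

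Depth ran from 17876515 to 40565708 gene counts in responders, from 25542066 to 39941835 in non-responders and came to 49884800 in the untreated library. Levels are given as CPM, counts scaled to a common depth with TMM library sizes. The libraries of 1 label did not all look alike. Responder replicates 4 and 6 stood apart from the other 4 responders in most of the genes below, and in non-responder replicate 1 the reads lay toward the 3′ ends of transcripts. The hepatocyte marker sum, dominated by albumin, ran from 65270 to 79050 CPM in responders and from 92100 to 118200 CPM in non-responders. It was 67940 CPM in the untreated library, so the labelled tissue showed its defining genes in every library. The sum does not stand for its members. Of its 8 markers only 2, Alb and Apoa1, had a negative log2 fold change of responder over non-responder, and the median of the 8 was 0.75.

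Of the 10 genes, 4 were lower in responders than in non-responders, Tspan8, Akr1b7, Bex1 and Igf2, and 0 were higher (edgeR quasi-likelihood test, Benjamini-Hochberg adjusted p below 0.05 over 17610 genes tested). Across all genes tested, 5.82% were lower and 4.11% higher in responders by the same rule. An unadjusted p below 0.05 was found for 7 of the 10 genes and for 27.3% of all genes tested in edgeR. All 10 genes had a negative log2 fold change of responder over non-responder, with a median of -3.07, against -0.016 over all genes tested. With the title number as a covariate, or with an exon index whose values are given further on, 0 of the 10 passed in edgeR (4 and 3 at an unadjusted p below 0.05), 1 of all genes did, and 7 and 6 of the 10 were negative. In 4 genes, Bex1, Akr1b7, Spp1 and Tspan8, every responder lay below every non-responder, which was the case for 5.62% of all genes tested, and 0 had every responder above, against 5.70% of all genes. All 10 passed the filter on low counts, which asks for 0.269 CPM of the raw library size in at least 4 libraries. Bex1 reached that level in 0 responders and 4 non-responders, so it entered the test through the group in which it is high alone, and a gene let in that way had to differ. Akr1b7 reached it in 3 responders and H19 and Dlk1 in 2 each, so these also needed the non-responders to be tested. The 10 genes were also chosen with earlier results of these data known, which bears on their common sign and median. The sign, the median and the counts of called and separated genes are therefore a description. Each of these 2 counts is 3 without Bex1. Without non-responder 2, 0 of the 10 passed in edgeR (6 at an unadjusted p below 0.05), and 79 of all genes did. The count of the 10 was 2, 1 and 2 without responder 1, 2 or 5, where 425, 324 and 309 of all genes passed. It was 4 and 5 without responder 4 or 6, where 1835 and 1767 of all genes passed. Without non-responder 1 or 3 it was 3 and 6, where 1712 and 1994 of all genes passed. In bulk tissue, fewer cells of a type and less RNA per cell cannot be told apart.

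**Figure D1:**
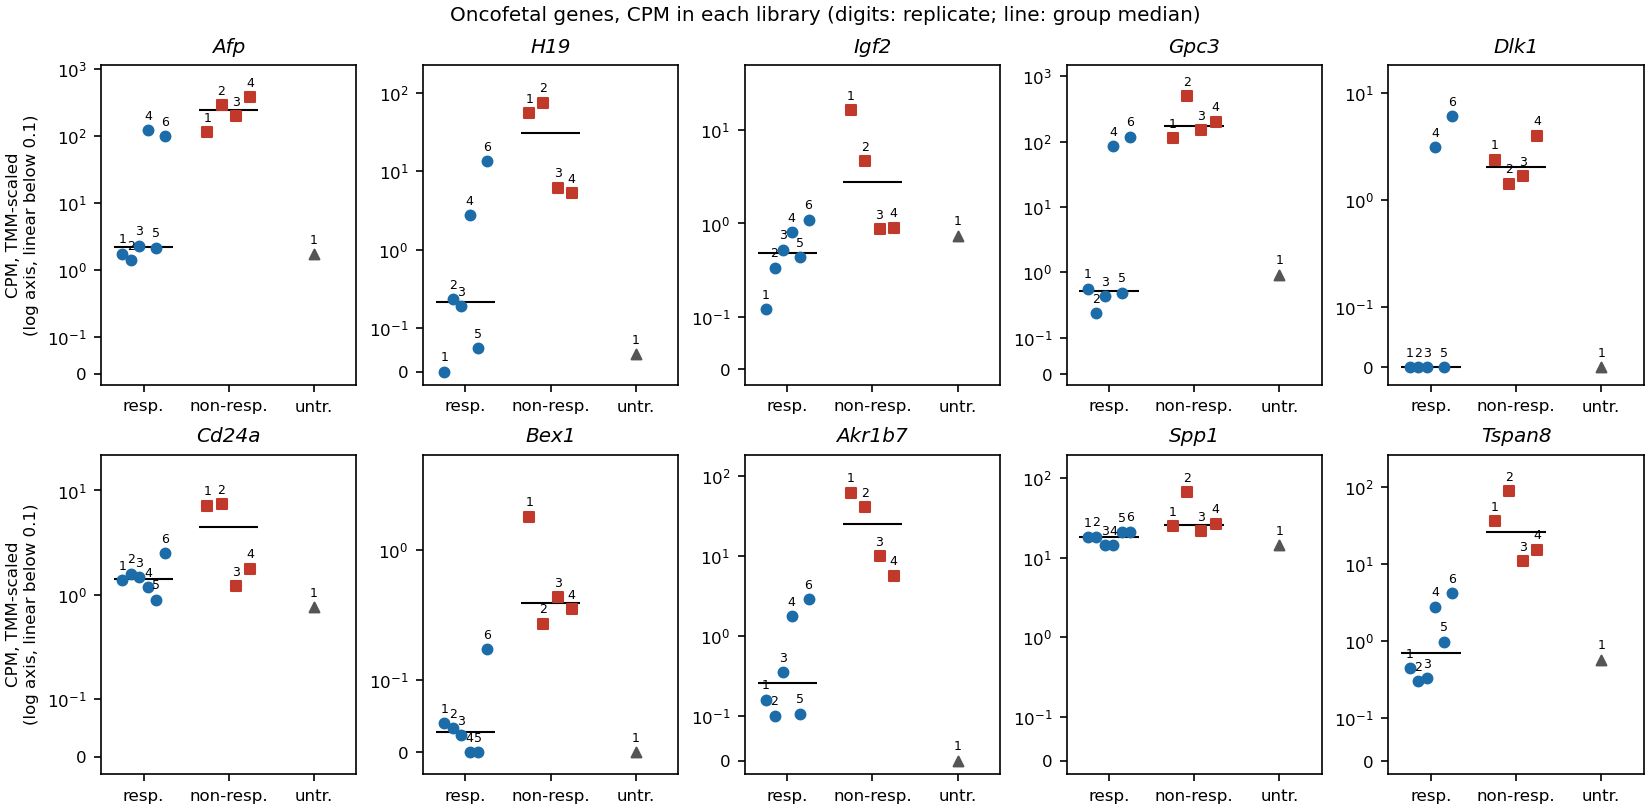
Level of each of the 10 genes in each library, in TMM-scaled CPM on an axis that is logarithmic above 0.1 and linear below. Points are libraries with their replicate number, and lines are the group medians of responders (resp.) and non-responders (non-resp.), beside the 1 untreated library (untr.). Responders 4 and 6 sit among or near the non-responders for Afp, Gpc3 and Dlk1, while Tspan8 and Akr1b7 separate the groups.

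Among the secreted proteins, Afp (chr5:90490714-90508907) had a lowest value of 1.38, a median of 2.21 and a highest value of 121 CPM in responders, against 115, 288, 198 and 382 CPM in non-responders 1 to 4. The responders split into 4 libraries near the untreated level and 2 libraries, replicates 4 and 6, at 121 and 99.8 CPM, and replicate 4 lies above the lowest non-responder, so the groups overlap. Afp averaged 38.1 ± 56.6 CPM in responders (SD, n = 6) and 246 ± 115 CPM in non-responders (SD, n = 4), and the difference did not pass (log2 fold change -2.69, SE 1.31, edgeR adjusted p = 0.217). In limma-voom Afp passed, with a log2 fold change of -5.03 and an adjusted p of 0.0240.

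Igf2 (chr7:142650766-142666816), the fetal insulin-like growth factor, had a lowest value of 0.121, a median of 0.479 and a highest value of 1.09 CPM in responders. In non-responders 1 to 4 it had 16.2, 4.61, 0.873 and 0.901 CPM. Non-responders 1 and 2 were high and non-responders 3 and 4 lay inside the responder range, so the groups overlap although the gene passed the test. The test rested on 110 counts in responders and 687 in non-responders (log2 fold change -3.35, SE 0.82, edgeR adjusted p = 0.0322). The call was lost when non-responder 1 was left out, with a log2 fold change of -1.93 and an adjusted p of 0.0826 in edgeR, and when non-responder 2 or any of responders 1, 2, 3 and 5 was left out, with adjusted p between 0.0604 and 0.0762. It was also lost in limma-voom (log2 fold change -2.40, adjusted p = 0.124).

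Spp1 (chr5:104435118-104441050), which encodes osteopontin, a secreted ligand of integrins and Cd44, varied least of the genes over the 11 libraries. It had a lowest value of 14.4, a median of 18.2 and a highest value of 21.2 CPM in responders, against 24.8, 66.3, 21.4 and 26.8 CPM in non-responders 1 to 4. The groups do not overlap, but the highest responder and the lowest non-responder lay 1.01-fold apart. The difference missed the threshold (log2 fold change -0.96, SE 0.29, edgeR adjusted p = 0.0537), and without non-responder 2 the log2 fold change was -0.44 (edgeR adjusted p = 0.131). It passed in 3 of the 11 other settings that kept all libraries, with adjusted p of 0.0147 in DESeq2, and of 0.0468 with library size only and 0.0482 with the stricter filter in edgeR.

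Among the surface proteins, Gpc3 (chrX:52272426-52613950) had a lowest value of 0.236, a median of 0.526 and a highest value of 119.9 CPM in responders, against 113, 493.5, 151 and 202 CPM in non-responders 1 to 4. Responders 4 and 6, at 86.2 and 119.9 CPM, were at least 153-fold above the other responders, and responder 6 lay above non-responder 1. Gpc3 did not pass the test (log2 fold change -2.80, SE 1.59, edgeR adjusted p = 0.289). In limma-voom it passed, with a log2 fold change of -6.39 and an adjusted p of 0.0208.

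Dlk1 (chr12:109452823-109463336) was at 0 in responders 1, 2, 3 and 5, where 3 counts would have given between 0.0715 and 0.121 CPM. It had 3.105 CPM in responder 4 and 5.98 CPM in responder 6, the highest value of any library. In non-responders 1 to 4 it had 2.36, 1.41, 1.67 and 3.95 CPM, so Dlk1 was found in the same 6 libraries as high Afp and Gpc3 whichever label they carried. Dlk1 did not pass (log2 fold change -0.64, SE 1.37, edgeR adjusted p = 0.802). In limma-voom with quality weights it passed, with a log2 fold change of -5.62 and an adjusted p of 0.00768.

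Tspan8 (chr10:115817284-115849893), a tetraspanin of epithelial surfaces and extracellular vesicles, had a lowest value of 0.304, a median of 0.710 and a highest value of 4.19 CPM in responders. In non-responders 1 to 4 it had 35.8, 86.5, 10.7 and 15.3 CPM. Every responder lay below every non-responder, with the lowest non-responder 2.55-fold above the highest responder, and responders 4 and 6 were again the highest of their group. Tspan8 passed (log2 fold change -4.63, SE 0.86, edgeR adjusted p = 0.0187) with the 14th lowest log2 fold change of all genes tested. The call was lost without non-responder 2 (edgeR adjusted p = 0.0603) and kept when any other library was left out.

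Cd24a (chr10:43579169-43584262), a small glycosyl-phosphatidylinositol-anchored protein that binds Siglec receptors, had a lowest value of 0.894, a median of 1.42 and a highest value of 2.51 CPM in responders, against 7.12, 7.38, 1.21 and 1.78 CPM in non-responders 1 to 4. As with Igf2, non-responders 1 and 2 were high and non-responders 3 and 4 lay inside the responder range. The difference did not pass (log2 fold change -1.54, SE 0.49, edgeR adjusted p = 0.0674). Cd24a passed without non-responder 3 and without non-responder 4, with edgeR adjusted p of 0.0235 and 0.0433. With all libraries it passed in DESeq2 (log2 fold change -1.54, adjusted p = 0.0158). It did not pass in limma-voom without or with quality weights (adjusted p = 0.222 and 0.456).

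H19 had a lowest value of 0, a median of 0.214 and a highest value of 13.4 CPM in responders, against 55.6, 75.2, 6.21 and 5.31 CPM in non-responders 1 to 4. Responder 6 lay above non-responders 3 and 4, and responder 4, at 2.78 CPM, lay below both. H19 did not pass (log2 fold change -3.66, SE 1.39, edgeR adjusted p = 0.120), and without responder 6 its log2 fold change was -6.04 (edgeR adjusted p = 0.0221). With all libraries it passed in limma-voom with quality weights (log2 fold change -5.055, adjusted p = 0.0246). Without those weights it did not pass in limma-voom (log2 fold change -5.62, adjusted p = 0.0544).

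Akr1b7 (chr6:34412334-34423142), an aldo-keto reductase that reduces lipid aldehydes, had a lowest value of 0.101, a median of 0.259 and a highest value of 2.90 CPM in responders. In non-responders 1 to 4 it had 62.1, 40.7, 9.94 and 5.73 CPM. The groups do not overlap, and the highest responders were again replicates 4 and 6, at 1.77 and 2.90 CPM. Akr1b7 passed with the 7th lowest log2 fold change of all genes tested (-5.05, SE 1.01, edgeR adjusted p = 0.0211). The call was lost without non-responder 2, where the edgeR adjusted p was 0.0668, and without responder 2, where it lay at the threshold. Akr1b7 shares 27.17% of its exon bases with Gm13857, a gene on the opposite strand. Whether the counting used strand is unknown, so the level of Akr1b7 is uncertain. Over all libraries Akr1b7 had 3998 counts and Gm13857 had 1587.

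Bex1 (chrX:136213972-136215513), a small adaptor protein of neural and progenitor cells, was the rarest of the genes, with 10 counts in responders and 91 in non-responders. It had a lowest value of 0, a median of 0.0288 and a highest value of 0.174 CPM in responders, against 1.82, 0.271, 0.437 and 0.350 CPM in non-responders 1 to 4. The groups do not overlap, and non-responder 1 supplied 50 of the 91 counts. Bex1 had an edgeR adjusted p of 0.0225 (log2 fold change -3.71, SE 0.80), in a test that it entered only through the non-responders. With no filter on low counts the adjusted p was 0.0201, and under a filter of 1 CPM in at least 4 libraries it was not tested (edgeR). Without non-responder 1 the log2 fold change was -2.71 and Bex1 still passed (edgeR adjusted p = 0.0391), and the call was lost without non-responder 2 or without responder 1, 2 or 5, with edgeR adjusted p between 0.0534 and 0.0568. Bex1 shares 18.8% of its exon bases with Tceal7, which had 7 counts.

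**Figure D2:**
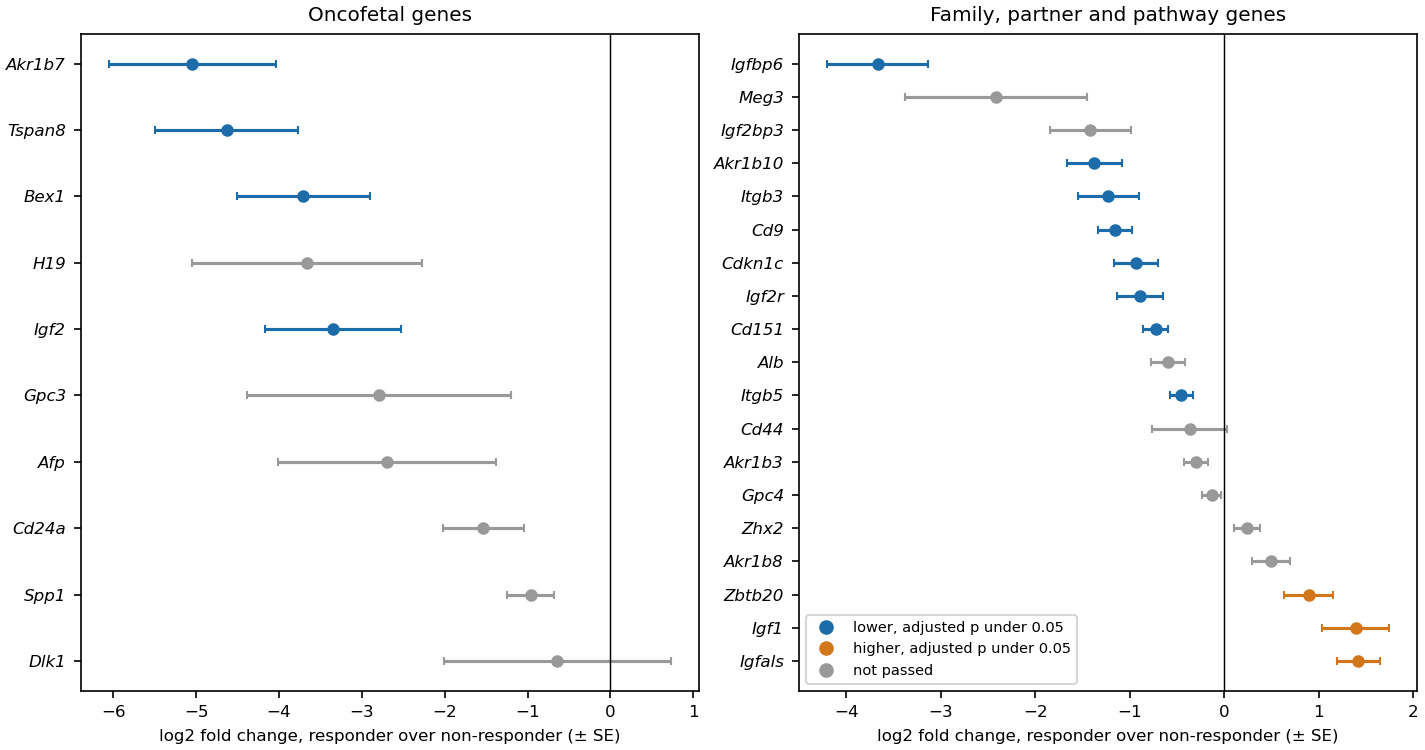
Log2 fold change of responder over non-responder with its standard error (horizontal bars), for the 10 genes on the left and for genes of their families, partners and pathways on the right; colours mark edgeR adjusted p below 0.05. All 10 estimates on the left are below 0, from -5.05 in Akr1b7 to -0.64 in Dlk1, and 4 of them passed.

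The untreated library lay on the low side for all 10 genes. Each gene was below all 4 non-responders there, 8 of the 10 were inside the responder range, and Cd24a and Akr1b7 were below every responder. Afp was at 1.71 CPM, Gpc3 at 0.924 CPM, Spp1 at 14.5 CPM and Tspan8 at 0.575 CPM in it. Dlk1, Bex1 and Akr1b7 had 0 counts in the untreated library, which allows a level of up to 0.0616 CPM (3 counts). It is a single library, so no test was made.

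Summed over the 10 genes, responders 4 and 6 had 234.5 and 271 CPM, and the other responders had between 20.01 and 26.2 CPM. Non-responders 1 to 4 had 433, 1064, 402 and 645 CPM, and the untreated library had 19.2 CPM. The sums fall into libraries at about the untreated level, responders 4 and 6, and the non-responders above them. Afp and Gpc3 make up most of each high sum, and Spp1 most of each low one.

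Per kilobase of the listed gene length, the order of the median levels in responders was Spp1 (11.1 CPM per kb), Afp (1.06), Cd24a (0.785), Tspan8 (0.466), Akr1b7 (0.202), Gpc3 (0.196), H19 (0.0900), Igf2 (0.0837), Bex1 (0.0243) and Dlk1 (0). In non-responders it was Afp (116.6 CPM per kb), Gpc3 (65.7), Akr1b7 (19.8), Tspan8 (16.8), Spp1 (15.7), H19 (13.02), Cd24a (2.45), Igf2 (0.482), Dlk1 (0.356) and Bex1 (0.332). Spp1 thus led in responders and stood in the middle of the order in non-responders. In both groups the ranges of neighbours in the order overlap throughout, so adjacent ranks are not apart beyond their spread. In responders the range of Spp1, 8.73 to 12.9 CPM per kb, lay inside that of Afp, 0.664 to 58.2.

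The variation inside the non-responder group differed between genes. The highest non-responder was 2.80-fold above the lowest for Dlk1, 3.10-fold for Spp1, 3.33-fold for Afp and 4.39-fold for Gpc3. It was 10.8-fold above for Akr1b7, 14.2-fold for H19 and 18.6-fold for Igf2. The genes with the wide range, together with Tspan8 and Cd24a, had their highest values in non-responders 1 and 2, whereas Afp peaked in non-responder 4 and Gpc3 in non-responder 2.

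Reads over single exons show how the transcripts were covered. Afp has 15 exons in the transcript used, and the first 7 held 45.3% (95% exact binomial interval 43.5 to 47.1) and 41.5% (40.1 to 42.8) of its exon counts in responders 4 and 6. In non-responders 1 to 4 the share was 13.1% (12.1 to 14.1), 42.8% (42.0 to 43.6), 42.3% (41.4 to 43.3) and 44.6% (43.9 to 45.3). Alb, the adult relative of Afp in the same gene family, also with 15 exons, had a share of 12.1% in non-responder 1 and between 39.1% and 43.3% in every other library. In non-responder 1 the shortfall of reads over the first exons was therefore seen in Afp and Alb alike.

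In the responders with little Afp the pattern was another one. The first 7 exons of Afp held 17.4% (7.82 to 31.4), 6.98% (1.46 to 19.1), 16.8% (10.3 to 25.3) and 13.6% (7.25 to 22.6) of the exon counts in responders 1, 2, 3 and 5, from 43 to 107 counts each. The untreated library had 20.7% (12.9 to 30.4) of 92 counts. In those 5 libraries the Alb share was between 42.4% and 43.3%, outside every one of these Afp intervals. The few Afp reads of these libraries thus lay toward the 3′ part of the gene while Alb reads did not. These intervals cover counting error only.

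**Figure D3:**
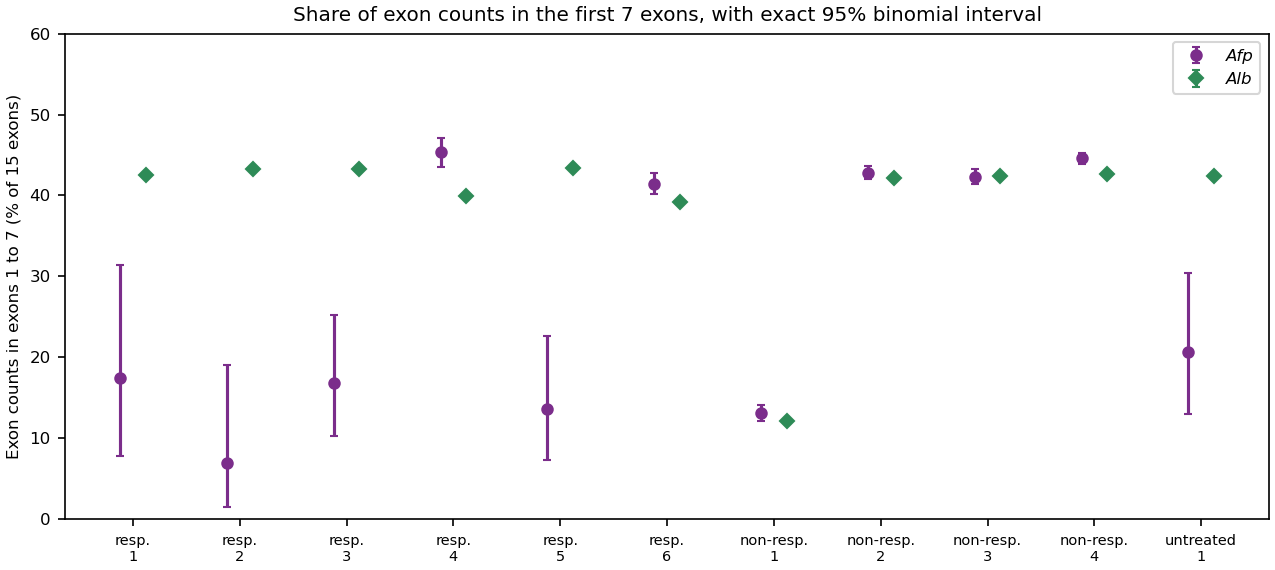
Share of exon counts in the first 7 of 15 exons (vertical axis, %) for Afp and Alb in each library, with exact 95% binomial intervals, for responders (resp.), non-responders (non-resp.) and the untreated library. Alb is near 42% in all libraries but non-responder 1, and Afp reaches that level in responders 4 and 6 and in non-responders 2 to 4.

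Coverage of the first exons was also read for Gpc3. The first 3 of its 8 exons held 55.6% and 51.4% of its counts in responders 4 and 6, and 20.8%, 54.2%, 53.6% and 53.1% in non-responders 1 to 4. In the other responders the share was between 30% and 70%, from 10 to 20 counts each, and in the untreated library it was 74.5% (60.4 to 85.7) of 51 counts. The untreated library therefore kept Gpc3 reads over the first 3 exons. In the responders with little Gpc3 the counts were too few to tell. The 95% interval in responder 2 ran from 6.67 to 65.25%. Responder 3 had 0 counts in exon 1, 0 in exon 2 and 11 in exon 3.

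For Igf2 most counts lay in the last exon (chr7:142650766-142654052), which encodes the end of the protein and holds the long 3′ untranslated region. That exon had 3, 10, 18, 14, 14 and 38 counts in responders 1 to 6, 411, 143, 29 and 36 in non-responders 1 to 4, and 35 in the untreated library. The first exon that starts beside the Igf2 promoter printed above (chr7:142657388-142657496) had 3 counts in responder 6, 2 in non-responder 1, 7 in non-responder 2 and 0 in the other libraries. Another first exon lay farther upstream (chr7:142658364-142659489). It had 2 counts in responder 5, 7 in non-responder 1, 2 in non-responder 2 and 0 in the other libraries. The first exon farthest upstream had 0 counts in all 11 libraries. At these counts the start in use could not be told.

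The H19 exon that holds the miR-675 hairpin (chr7:142576829-142578143) had 0, 3, 7, 30, 2 and 342 counts in responders 1 to 6. It had 658, 1556, 119 and 130 counts in non-responders 1 to 4 and 0 in the untreated library. As for the whole gene, responder 6 lay above non-responders 3 and 4, and responders 1 and 5 had next to no reads. These are reads over the host exon and do not measure the mature miRNA strands.

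The libraries in which these genes were high also differed in reads over single exons of the genes named in the tumour model. Only exon 12 of Ctnnb1 and exon 17 of Met were taken, and the other exons are not given singly. The likeness may depend on that choice. Exon 12 of Ctnnb1, which encodes β-catenin, had a read density of 1.10, 1.02, 0.953, 1.65, 1.0 and 2.10 times the median of the gene's exons in responders 1 to 6. In non-responders 1 to 4 it had 7.73, 3.61, 2.10 and 1.99 times that median, and in the untreated library 1.11 times. Exon 17 of Met stood at 2.54 and 3.35 times its own median in responders 4 and 6, between 1.201 and 1.52 times in the other responders, between 2.95 and 17.3 times in non-responders and at 1.31 times in the untreated library. Responders 4 and 6 were thus the highest of their group in both exons, as they were for Afp, Gpc3, Dlk1, H19, Igf2, Akr1b7 and Tspan8. With the mean log2 of both densities as a covariate, a setting chosen after seeing the data, 0 of the 10 genes passed in edgeR (3 at an unadjusted p below 0.05), and Akr1b7, Tspan8 and Bex1 had log2 fold changes of -2.11, -2.42 and -1.74. Non-responder 1, which has the highest density in both exons, is also the library whose reads lay toward the 3′ ends, with 12.1% of Alb exon counts in the first 7 exons against 39.1% or more elsewhere, and the part of that skew in its densities was not tested. Nor was the part of the index in the group differences tested.

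**Figure D4:**
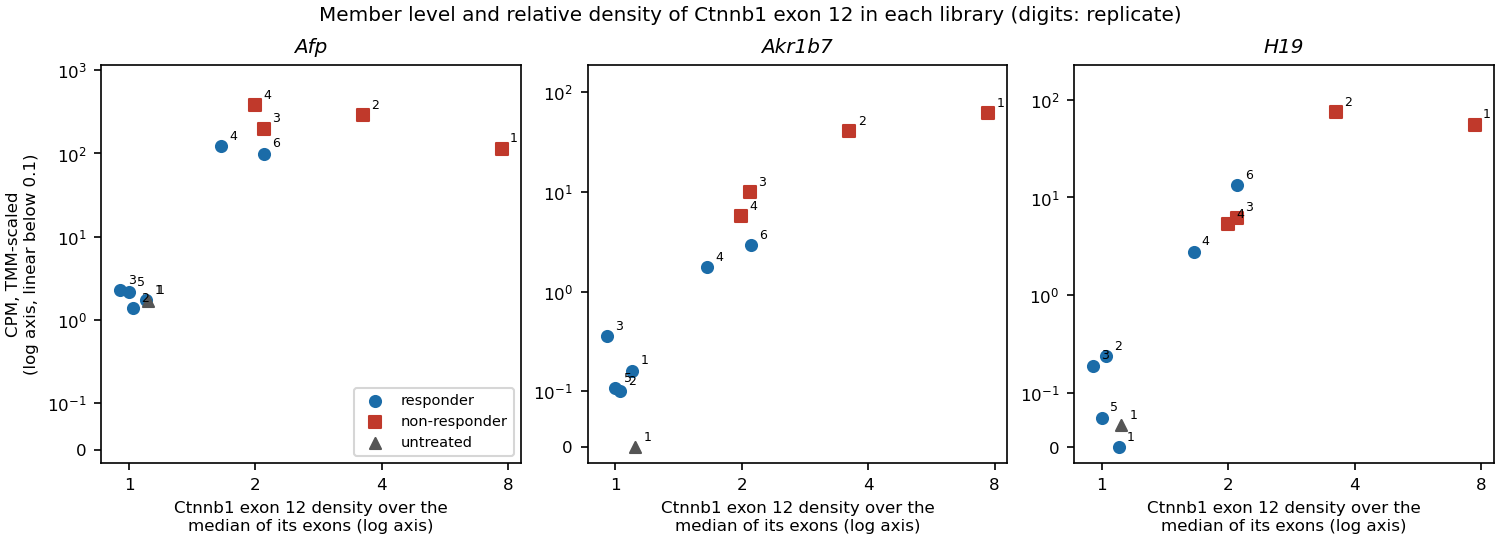
Level of Afp, Akr1b7 and H19 (vertical axes, TMM-scaled CPM, logarithmic above 0.1 and linear below) against the read density of Ctnnb1 exon 12 over the median of that gene's exons (horizontal axes, logarithmic) in the 11 libraries. The 4 responders and the untreated library with densities near 1 have Afp near 2 CPM. Responders 4 and 6 have densities of 1.65 and 2.10, against 2.10 and 1.99 in non-responders 3 and 4. In level they lie below non-responders 3 and 4 for Afp and Akr1b7. For H19 only responder 4 lies below both.

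The families, partners and pathways of the 10 genes were read from the same fit. Of 143 further genes tested on 16 lists, 18 were lower and 8 higher in responders, with a median log2 fold change of -0.24. That is 18.2% called, against 9.93% of all genes tested. The lists were chosen with earlier results of these data known, so this share is a description. Without non-responder 2, 4 of these genes passed, Igfals, Irs2, Igfbp6 and Cd9, and without responder 1, 2 or 5 the number was 9, 6 and 6 (edgeR). In those fits 79, 425, 324 and 309 of all genes passed.

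Of 11 regulators of Afp, 0 were lower and 2 higher in responders. Zbtb20, a zinc finger protein that represses Afp in the postnatal mouse liver, averaged 330 ± 84.9 CPM in responders (SD, n = 6) and 177 ± 59.8 CPM in non-responders (SD, n = 4; log2 fold change 0.89, SE 0.26, edgeR adjusted p = 0.0497). Cebpa, a transcription factor of the mature hepatocyte, averaged 612 CPM in responders and 316 CPM in non-responders (log2 fold change 0.95, edgeR adjusted p = 0.0470). Without non-responder 2 neither passed, with edgeR adjusted p of 0.130 and 0.132, and each kept its call in 2 of the 10 fits that left out 1 library. Zhx2, another postnatal repressor of Afp in mice, had a log2 fold change of 0.24, at an edgeR adjusted p of 0.277. Alb averaged 56750 CPM in responders and 85410 CPM in non-responders, with ranges of 48590 to 62620 CPM and 76510 to 91020 CPM that do not overlap, and missed the threshold (log2 fold change -0.60, edgeR adjusted p = 0.0524), but passed in 6 of the 11 other settings that kept all libraries, DESeq2 and limma-voom among them.

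Among 16 other imprinted growth genes, 2 were lower and 0 higher in responders, Cdkn1c and Igf2r. Cdkn1c, an imprinted inhibitor of the cell cycle, had a log2 fold change of -0.93, at an edgeR adjusted p of 0.0324, and Igf2r, which takes Igf2 up for degradation, one of -0.89 (edgeR adjusted p = 0.0430). Meg3, the maternally expressed RNA of the Dlk1 cluster, averaged 17.93 ± 23.4 CPM in responders and 95.04 ± 43.1 CPM in non-responders (SD, n = 6 and 4). It did not pass (log2 fold change -2.42, edgeR adjusted p = 0.135), although the highest responder, at 53.85 CPM, lay just below the lowest non-responder, at 54.29 CPM. Of the 16 genes, 8 had an unadjusted p below 0.05 in edgeR, against 27.3% of all genes tested. These 8 did not share a direction. Peg3 and Slc38a4 had positive log2 fold changes, 0.68 and 1.59, and the others negative ones. In DESeq2 5 passed, in limma-voom 7 and with quality weights 9.

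Of 16 other genes of the insulin-like growth factor axis, 3 were lower and 4 higher in responders. Igf1, the growth factor of the adult liver, averaged 683 ± 163 CPM in responders (SD, n = 6) and 261 ± 147 CPM in non-responders (SD, n = 4), with a log2 fold change of 1.39, at an edgeR adjusted p of 0.0346, so its sign was opposite to that of Igf2. Igfals, which holds circulating Igf1 in a stable complex, was higher by 1.42 on the log2 scale, and Irs2, an adaptor of the insulin receptor, by 1.08 (edgeR adjusted p = 0.0149 and 0.0187). Igfbp6, a binding protein that prefers Igf2, was lower, with a log2 fold change of -3.67, at an edgeR adjusted p of 0.0138. Igf2bp3, an oncofetal protein that binds Igf2 messenger RNA, had a log2 fold change of -1.42 and Igf1r, the signalling receptor, one of 0.28 (edgeR adjusted p = 0.0562 and 0.450).

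Of 15 other hepatoblast and progenitor genes, 1 was lower in responders and 0 were higher. It was Lgals1, a galectin, with a log2 fold change of -1.58, at an edgeR adjusted p of 0.0211. Of the 15, 14 had a negative log2 fold change, and the median was -0.83. An unadjusted p below 0.05 was found for 6 in edgeR, against 27.3% of all genes tested. In DESeq2 4 passed, in limma-voom 4 and with quality weights 7. Cdh17 averaged 4.64 CPM in responders and 96.5 CPM in non-responders, without overlap, and did not pass (log2 fold change -4.41, edgeR adjusted p = 0.0537). Of 4 other glypicans 0 passed in edgeR, DESeq2 or limma-voom, and 0 had an unadjusted p below 0.05. Gpc4 averaged 54.2 ± 2.57 CPM in responders and 59.2 ± 7.90 CPM in non-responders (SD, n = 6 and 4; edgeR adjusted p = 0.427).

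Of 20 other tetraspanins, 6 were lower and 0 higher in responders. Cd9 averaged 25 CPM in responders and 55.4 CPM in non-responders (log2 fold change -1.16, edgeR adjusted p = 0.0147), and kept its call when any 1 library was left out. Cd151, which pairs with laminin-binding integrins, had a log2 fold change of -0.73, at an edgeR adjusted p of 0.0149. Cd63 averaged 7.73 CPM in responders and 54.1 CPM in non-responders, without overlap (log2 fold change -2.84, edgeR adjusted p = 0.0475). Cd9, Cd151 and Cd63 changed by less than Tspan8 on the log2 scale, and those differences were not tested.

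Of 3 other Akr1b genes, Akr1b10 was lower in responders, with a log2 fold change of -1.38, at an edgeR adjusted p of 0.0213. Akr1b3, the aldose reductase gene, and Akr1b8 had log2 fold changes of -0.30 and 0.49 (edgeR adjusted p = 0.139 and 0.137). Bex2 had too few counts to be tested, averaging 0.0585 CPM in responders and 0.473 CPM in non-responders. Of 10 genes for receptors of osteopontin and Cd24, the integrin subunits Itgb3 and Itgb5 were lower in responders, with log2 fold changes of -1.23 and -0.45 (edgeR adjusted p = 0.0368 and 0.0412). Cd44 and Siglecg had -0.37 and -0.31 (edgeR adjusted p = 0.591 and 0.470).

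Markers of other liver cell types were read beside these values, since Spp1, Cd24a and Tspan8 are also expressed in bile duct cells. Of 9 biliary markers tested, 0 passed in edgeR, DESeq2 or limma-voom (1 at an unadjusted p below 0.05 in edgeR, 2 passed in limma-voom with quality weights). Epcam averaged 0.534 ± 0.225 CPM in responders and 0.695 ± 0.326 CPM in non-responders (SD, n = 6 and 4). Krt19 averaged 0.666 ± 0.396 CPM in responders and 0.704 ± 0.568 CPM in non-responders, and Sox9 2.62 ± 0.750 CPM in responders and 1.76 ± 1.04 CPM in non-responders (SD, n = 6 and 4). These markers of bile duct cells were at low levels in both groups, with log2 fold changes of -0.41 for Epcam, -0.11 for Krt19 and 0.58 for Sox9. Cftr, with too few counts to be tested, was at 0 in responders 2, 3, 4 and 6. It had 8 counts in responders and 21 in non-responders, and the lowest non-responder was at 0.0543 CPM. The part of the biliary markers in the differences of the 10 genes was not tested.

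The sum of 10 macrophage markers, a cell type that also makes Spp1, ran from 183 to 607 CPM in responders and from 89.1 to 418 CPM in non-responders, and 0 of 10 passed in edgeR, DESeq2 or limma-voom (2 at an unadjusted p below 0.05 in edgeR). Of 10 stellate cell and fibroblast markers 0 passed in edgeR or limma-voom and 2 in DESeq2 (6 at an unadjusted p below 0.05 in edgeR), with sums from 246 to 437 CPM in responders and from 350 to 521 CPM in non-responders. Those 6 differed in direction. Col1a1, Col1a2, Col3a1 and Acta2 had log2 fold changes of -2.21, -1.36, -0.66 and -2.24, and Lrat and Dcn of 0.63 and 0.61. The macrophage and stellate sums thus overlapped between the groups. Erythroid sums ran from 80.3 to 184 CPM in responders and from 139 to 269 CPM in non-responders, and T cell sums from 4.66 to 9.43 CPM in responders and from 4.32 to 13.7 CPM in non-responders. Of 6 erythroid markers tested, 2 were lower in responders, Hbb-bt and Slc4a1, with log2 fold changes of -1.22 and -2.05 (edgeR adjusted p = 0.0171 and 0.0199). Slc4a1 had 40 counts in responders and 127 in non-responders. The other tested erythroid markers did not pass in edgeR and differed in sign. Hba-a1 and Hbb-bs had log2 fold changes of -1.205 and -0.88, and Alas2 and Klf1 of 0.081 and 0.795. Of 8 T cell markers 1 was lower, Trac, with a log2 fold change of -1.58, at an edgeR adjusted p of 0.0427. Of 8 hepatocyte markers, Apoa1 was lower, with a log2 fold change of -1.11, and Tat and Cps1 were higher, with 1.25 and 1.59 (edgeR adjusted p = 0.0248, 0.0367 and 0.0462). All 8 had an unadjusted p below 0.05 in edgeR. In DESeq2 7 of them passed, in limma-voom 4 and with quality weights 8. The part of these cell types in the differences of the 10 genes was not tested either.

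The genes most like Afp across the 11 libraries, by Pearson correlation of log2 CPM among 11415 candidates, were Akr1c18 (r = 0.994), Prom1 (r = 0.993), Sh3bp4 (r = 0.991), Dcbld2 (r = 0.990) and Mep1b (r = 0.985). Akr1c18 averaged 9.76 ± 14.98 CPM in responders (SD, n = 6) and 56.1 ± 4.86 CPM in non-responders (SD, n = 4), and all responders lay below all non-responders, although the gene did not pass (edgeR adjusted p = 0.261). As with Afp, 0 of these 5 passed in edgeR. The genes most like the mean of all 10 were Galnt18 (r = 0.990), Ets2 (r = 0.989), Tnfrsf12a (r = 0.988), Sparc (r = 0.988) and B4galt6 (r = 0.987), and all 5 were lower in responders (edgeR). Sparc, a secreted matrix protein, averaged 107 ± 49.4 CPM in responders (SD, n = 6) and 429 ± 219 CPM in non-responders (SD, n = 4), with a log2 fold change of -2.01, at an edgeR adjusted p of 0.0173. The correlations describe libraries that fall into separate groups, and each gene was chosen for its likeness.

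**Figure D5:**
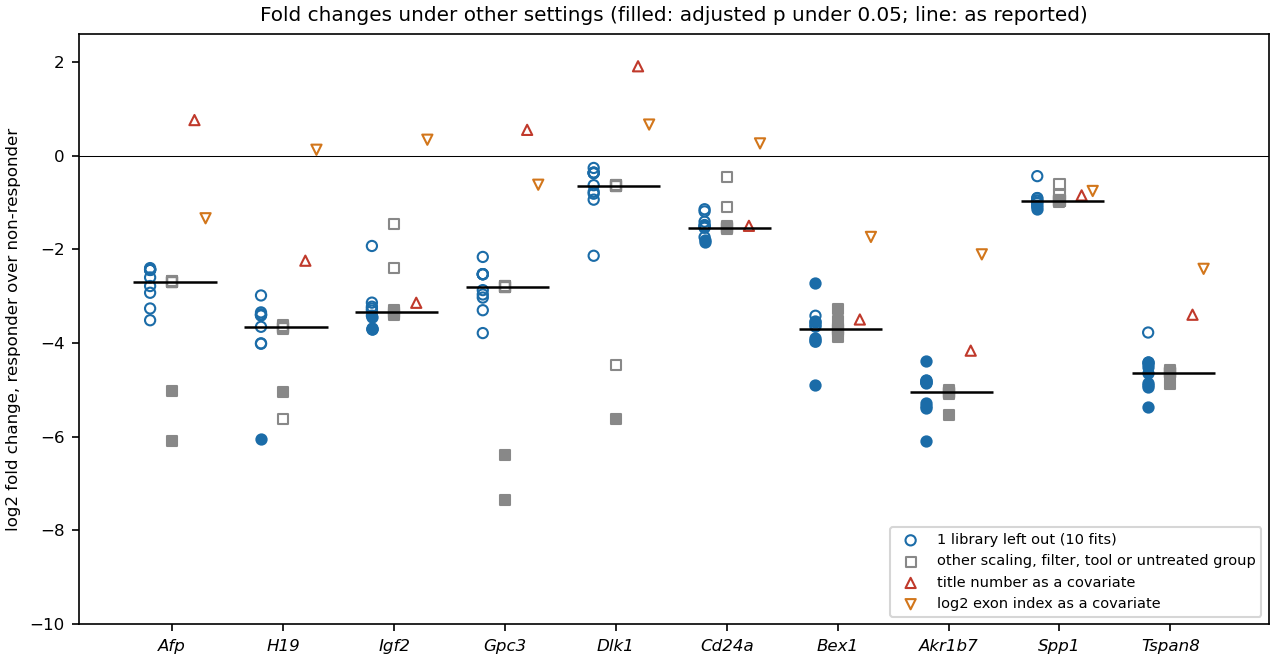
Log2 fold change of responder over non-responder (vertical axis) of each gene under the other settings, with 1 library left out (circles), other scalings, filters, tools or the untreated library as a group (squares) and 2 covariates (triangles); filled symbols have an adjusted p below 0.05 and the line is the value given in the text. Tspan8 and Akr1b7 stay below -2 in every setting shown, and 0 of the 10 genes passed with either covariate.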

How the data were processed

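Liver RNA was isolated with TRIzol for Illumina sequencing, per the labels' protocols. The deposited gene table holds raw counts per gene and RPKM values, and a second deposited table holds raw counts per exon of each transcript with RPKM, per the file headers; the authors' RPKM was not used. FastQC and mm10 are named in the submitters' processing notes; an aligner, counter, annotation release or strand setting is not given in the sources used here. Of 43346 gene identifiers, 42462 matched GENCODE M21, and all 10 genes did.

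Groups follow the response label, and replicates are numbered by accession. Every pair within a group differed beyond counting noise (median chi-square 4.28 or more times its expected value), so each library was kept as its own replicate. Responders and non-responders were compared in R 4.3.3 with the robust quasi-likelihood F test of edgeR 4.0.16 (TMM scaling, filterByExpr, Benjamini-Hochberg adjustment over 17610 genes, threshold 0.05). CPM is TMM-scaled over all 11 libraries, and correlations used log2 CPM with a prior count of 2. Intervals of exon shares are exact binomial (scipy 1.17.1) at 95%. Alternatives were 3 scalings, 2 filters, DESeq2 1.42.0, limma-voom (limma 3.58.1) with and without quality weights, the untreated library as a group, the title number as a covariate and each library left out; the exon index covariate was chosen after seeing the data. The fit was tested on simulated counts. The summed level of the biliary markers is not reported here.

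The 10 genes and the companion lists were chosen with earlier results of these data known. Other genes named are up to 3 per list with the smallest p past the threshold, a fixed set, and the 5 most correlated with Afp and with the mean of the 10, among genes with an average log2 CPM of at least 1 and leaving out symbols of unnamed predicted or cDNA genes. Cdh17 and Cd63 are named for the size of their change.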

Additional observations from a re-analysis of the deposited data

How the results depend on the processing

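The count of 4 genes lower in responders was between 3 and 5 under the other scalings, filters and limma-voom and with the untreated library as a group, and 6 with DESeq2. It was 7 with limma-voom and quality weights, where Afp and Gpc3 passed with log2 fold changes of -6.08 and -7.35. Leaving out 1 library gave between 0 and 6 of the genes, between 79 and 1994 of all genes and between 4 and 30 of the companion genes, against 1748 and 26 with all libraries; without non-responder 2 it was 0, 79 and 4. DESeq2 called 3057 genes in all and 43 companion genes, and limma-voom with quality weights 3642 and 55. No scaling moved the median log2 fold change of all genes by more than 0.1.

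With the title number as a covariate, which ran from 1 to 29 in responders and from 26 to 37 in non-responders, 0 of the 10 genes (4 at an unadjusted p below 0.05), 1 of all genes and 0 companion genes passed in edgeR. The estimates there changed sign for Afp (0.76), Gpc3 (0.55), Dlk1 (1.91), Gpc4 (0.016), Akr1b8 (-0.059), Krt19 (0.29), Akr1c18 (0.091), Prom1 (0.42) and Dcbld2 (0.080). With the exon index, again 0, 1 and 0 passed, and the sign changed for H19 (0.12), Igf2 (0.34), Dlk1 (0.66), Cd24a (0.26) and Epcam (0.23). Without single libraries Krt19 ran from -0.43 to 0.50. The cause was not tested. No paired analysis was possible because the replicate numbers follow accession order and the numbers in the titles are all different. Depth limits Bex1 most, with 10 counts in responders and 91 in non-responders.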
